A study of Caenorhabditis elegans with 2 samples.

Results

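The transforming growth factor beta (TGF-beta) genes that set body size and control dauer entry in Caenorhabditis elegans were examined for peaks of FKH-10, a forkhead transcription factor. They numbered 10 of the 19973 nuclear genes annotated as protein-coding. The body size branch held 7 of them (dbl-1, sma-6, sma-2, sma-3, sma-4, sma-9 and lon-2), the dauer branch held 2 (daf-7 and daf-1), and the receptor gene daf-4 serves both. The genes were taken by name, but the names were chosen by peak calls and signal values already known from these data. The number and strength of peaks at them are therefore a description and carry no test.

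Both branches use the same kind of relay. A secreted ligand binds a pair of type I and type II receptor kinases, which phosphorylate SMAD proteins that then act in the nucleus. In the body size branch the ligand DBL-1, a relative of bone morphogenetic proteins, signals through the type I receptor SMA-6, the type II receptor DAF-4 and the SMADs SMA-2, SMA-3 and SMA-4, with the zinc finger protein SMA-9 (a Schnurri homologue) as a nuclear partner. Loss of this signal gives small worms, and loss of the glypican LON-2, which restrains it, gives long ones. In the dauer branch the ligand DAF-7, made by sensory neurons, signals through DAF-1 and DAF-4 and keeps larvae out of dauer, the arrested larval form entered under crowding or hunger.

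Chromatin immunoprecipitation with sequencing (ChIP-seq) was carried out on whole larvae of mixed sex at the L3 stage. All animals were of strain OP337, with the allele unc119(ed3) and the integrated transgene wgIs377, which holds fkh-10 fused to a TY1, EGFP and FLAG tag together with unc119. The antibody is labelled fkh-10 while a further label describes a GFP and FLAG tag on the protein, so whether the antibody met the tag or the native protein is not given in the sources used here. Both libraries belonged to 1 group, biological replicates 1 and 2, and came from the same strain, so that no condition was compared with another. The tissues that contributed to a peak in whole animals cannot be told apart. At the fkh-10 gene itself none of the lists held a region between 5 kb upstream and the gene's end. The lists give no check of the labelled tag.

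Each gene was given a window from 5 kb upstream of its annotated 5' end to its other end, on build ce11, and the summits (the position of highest signal in a region) inside it were counted. The authors deposited 30000 candidate regions per replicate, as many for the pooled reads of both (the pooled list), and a thresholded list of 2005 peaks picked by the irreproducible discovery rate (IDR). The thresholded peaks were the 2005 pooled regions of highest signal value, and rank 1 is the strongest region of a list. Signal values are the authors' own, are read within a list only, and ran from 28.2 to 182 with a median of 41.8 in the thresholded list. Read depth is unknown, so a weak or missing region cannot be separated from shallow sequencing.

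The thresholded list held 5 summits in the windows of 4 of the 10 genes, namely 2 at sma-9 and 1 each at sma-2, daf-4 and daf-1. The bases within 50 bp of each of these summits are shown because every thresholded call at these genes rests on it, followed by the strongest region of daf-7, which fell below the threshold. All lie in windows of plus strand genes and are read on the plus strand of the RefSeq sequence of WBcel235 (ce11), 5' to 3'. Capitals mark the longest stretch of uninterrupted purines or uninterrupted pyrimidines. At sma-2 and upstream of sma-9 another stretch has the same length and is left in lower case.
sma-9 upstream, chrX:10766210-10766310: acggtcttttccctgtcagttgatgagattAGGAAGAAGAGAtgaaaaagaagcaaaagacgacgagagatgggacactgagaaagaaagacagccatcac
sma-9 intron, chrX:10771205-10771305: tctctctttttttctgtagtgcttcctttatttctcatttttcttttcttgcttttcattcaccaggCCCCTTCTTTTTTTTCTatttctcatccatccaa
daf-1, chrIV:132157-132257: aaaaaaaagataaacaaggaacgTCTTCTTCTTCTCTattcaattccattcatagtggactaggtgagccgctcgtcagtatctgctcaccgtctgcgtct
sma-2, chrIII:8744902-8745002: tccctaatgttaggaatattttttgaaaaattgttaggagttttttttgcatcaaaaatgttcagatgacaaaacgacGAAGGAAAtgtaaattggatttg
daf-4, chrIII:5623571-5623671: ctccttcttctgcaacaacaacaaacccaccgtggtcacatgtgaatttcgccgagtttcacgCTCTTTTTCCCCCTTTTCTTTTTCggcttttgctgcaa
daf-7 below the threshold, chrIII:809462-809562: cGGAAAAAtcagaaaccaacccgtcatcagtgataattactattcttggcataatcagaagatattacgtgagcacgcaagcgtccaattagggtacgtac

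Across all protein-coding genes, 12.9% had a thresholded summit in a window built the same way, against 4 of the 10 genes here. Window length went along with this count. The windows here ran from 6930 to 18692 bp with a median of 9819 bp, against a median of 7027 bp over all genes. All 4 genes with a summit were among the 5 with a window of at least 10 kb, a class in which 25.0% of all protein-coding genes had one, and lon-2 was the fifth. None of the 5 genes with shorter windows had one, in a class where 10.6% of all genes did. The 10 windows together held 4.62 thresholded summits per 100 kb, against 1.99 over all protein-coding windows.

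**Figure D1:**
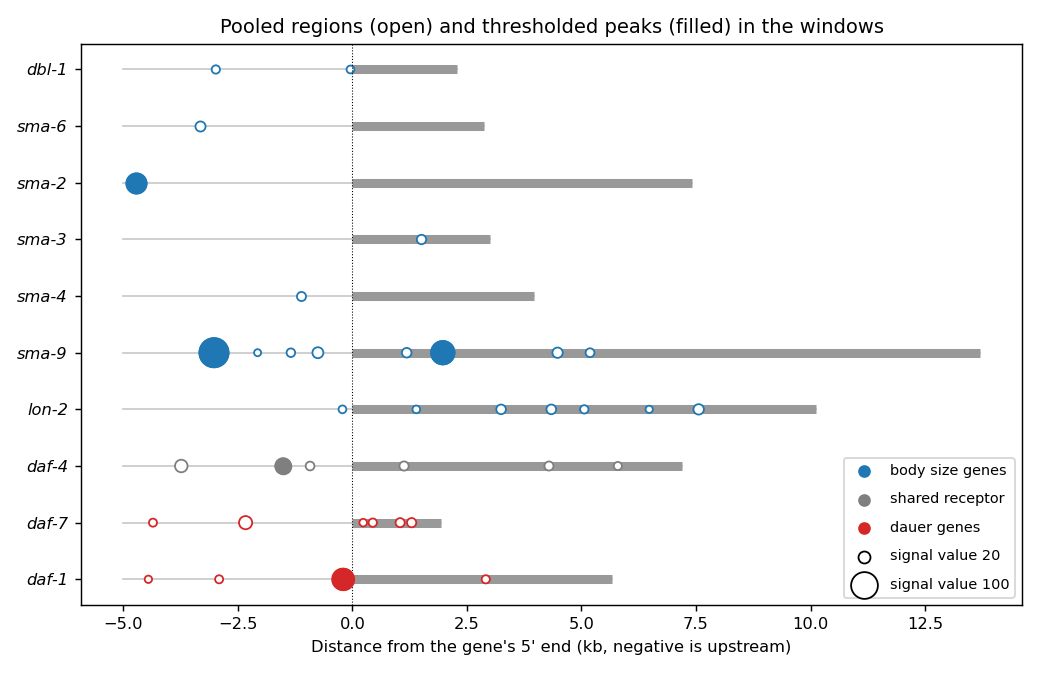
Summits in the window of each of the 10 genes by distance from the gene's annotated 5' end in kb (negative is upstream), with the gene body as a thick bar; open circles are pooled regions, filled circles are thresholded peaks, the area of a circle is proportional to the pooled signal value and colour gives the branch. The strongest peaks lie on either side of the 5' end of sma-9, the peak of daf-1 lies 209 bp before its start, and that of sma-2 lies near the far end of its window.

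The nuclear partner of the body size SMADs, sma-9 (WBGene00004862, chromosome X, 10769282 to 10782973), had the strongest peaks of the 10 genes. The first lay between genes (10766078 to 10766441), 3022 bp upstream of the annotated 5' end, with a signal value of 118, rank 20 of the 2005 peaks. In the list of replicate 1 the overlapping region had a signal of 77.4 and rank 16 of 30000. In that of replicate 2 it had a signal of 41.7 and rank 65. Both libraries thus placed it near the top of their lists, with summits 4 and 26 bp from the pooled one.

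The second peak of sma-9 (10771073 to 10771436) lay 4995 bp further on, in a 3728 bp intron (10769402 to 10773129) of the long transcripts. Its signal value was 76.2, rank 160. The overlapping regions had a signal of 45.6 and rank 182 in replicate 1, and a signal of 29.2 and rank 254 in replicate 2. Of the 16 annotated transcripts of sma-9, 3 start upstream of this summit and 13 downstream. Of the latter, 11 start 1826 to 1836 bp after it, so the peak is intronic for the long transcripts and upstream of the shorter ones. No other protein-coding start lay nearer to either summit.

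Apart from these peaks, the window of sma-9 held 6 pooled regions, with ranks from 4526 to 29821. Windows with at least 2 thresholded summits belonged to 456 protein-coding genes (2.28%). By the number of summits in the window in the 4 lists (2 thresholded, 8 pooled, 10 in replicate 1 and 8 in replicate 2), the genes most like sma-9 were pfas-1 (an enzyme of purine synthesis), mnk-1 (a protein kinase) and Y59C2A.2. Their Euclidean distances on log2(count + 1) over the 4 lists were 0.152, 0.152 and 0.170. Each had 2 thresholded summits, with 9, 8 and 7 pooled ones. The lists share reads, and the measure takes no account of position or strength.

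The type I receptor of the dauer branch, daf-1 (WBGene00000897, chromosome IV, 132416 to 138081), had the peak closest to a start. It lay between genes (132025 to 132388) with its summit 209 bp upstream of the annotated 5' end. The signal value was 63.8, rank 311 of the thresholded peaks. The overlapping region had a signal of 33.5 and rank 521 in replicate 1, and a signal of 29.4 and rank 251 in replicate 2. The other pooled regions of the window were weak in the pooled list, with ranks of 16938, 17785 and 25812. The first of these, in a coding exon of daf-1, overlapped a region of rank 2313 in replicate 2 (signal 11.8) and none in replicate 1.

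The type II receptor that both branches share, daf-4 (WBGene00000900, chromosome III, 5625135 to 5632323), had a weaker peak on which the replicates differed. Its summit lay between genes (5623439 to 5623802), 1514 bp upstream of the 5' end, with a signal value of 34.3 and rank 1494. The overlapping region ranked 862 in replicate 1 (signal 27.7) and 8263 in replicate 2 (signal 6.95). Replicate 1 thus held it among its 2005 strongest regions and replicate 2 did not. A further pooled region 3736 bp upstream (signal 22.0, rank 2890) ranked 3858 and 3961 in replicates 1 and 2, and 4 others in the window ranked from 9904 to 17505. The one of rank 17505, in a coding exon of daf-4, overlapped the strongest region of the window in replicate 2 (signal 9.34, rank 3919). It overlapped none in replicate 1.

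The SMAD gene sma-2 (WBGene00004856, chromosome III, 8749680 to 8757089) had a peak near the edge of its window. The peak (8744770 to 8745133) had a signal value of 56.5 and rank 447. The overlapping regions ranked 507 in replicate 1 (signal 33.9) and 908 in replicate 2 (signal 19.2). Its summit lay 4728 bp upstream of sma-2 but 1106 bp from the start of ZK370.6 on the other strand, and pdhk-2 was also nearer, at 3540 bp. Assigned to the nearest start, the peak would belong to ZK370.6, and it was the only pooled region in the window of sma-2. Just beyond the 5 kb limit, the closest thresholded summits upstream of the other genes lay 6013 bp before daf-1 (signal 28.5) and 7072 bp before sma-9 (signal 37.7). On the far side, a thresholded summit lay 492 bp beyond the end of daf-4 (signal 43.7).

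The ligand of the dauer branch, daf-7 (WBGene00000903, chromosome III, 811844 to 813773), had no thresholded peak. Its strongest pooled region (809330 to 809693) lay between genes, 2332 bp upstream, with a signal value of 24.2 and rank 2510, below the 28.2 at which the thresholded list ended. The overlapping region ranked 8393 in replicate 1 (signal 8.79) and 1192 in replicate 2 (signal 16.7). The order of the replicates was thus the opposite of that at daf-4. A separate region inside the gene, 452 bp from the 5' end, was the strongest of the window in replicate 1 (signal 15.9, rank 2330). In all, daf-7 had 6 pooled regions in 6.93 kb, 4 of them inside the gene with ranks from 9602 to 22670. These 4 overlap in pairs, and each pair was matched by the same region in replicate 1 (ranks 2330 and 18423). They are therefore not independent.

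The remaining body size genes had no region among the 2005 strongest of the pooled list or of either replicate. For the ligand dbl-1 (WBGene00000936, chromosome V, 6758135 to 6760418) the pooled regions lay 2982 and 43 bp upstream, with signals of 9.65 and 8.52 and ranks of 15857 and 20567. The second of these was matched in replicate 1 alone, at rank 6478. The nearest thresholded summits outside its window lay 127223 bp upstream and 119350 bp beyond the gene's end.

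For the type I receptor sma-6 (WBGene00004860, chromosome II, 6324484 to 6327355) the only pooled region, with a signal of 14.2 and rank 6305, lay 3333 bp upstream. Its summit fell in the 5' UTR of efr-3, 8 bp from that gene's start. The overlapping region ranked 29831 in replicate 1 and 4873 in replicate 2. The SMAD gene sma-4 (WBGene00004858, chromosome III, 5816232 to 5820204) likewise had 1 pooled region (signal 11.6, rank 10318), 1124 bp upstream and in the 5' UTR of R12B2.7, 63 bp from its start. The pooled regions of sma-6 and sma-4 thus lay at the starts of neighbouring genes.

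The SMAD gene sma-3 (WBGene00004857, chromosome III, 6860974 to 6863968, minus strand) had 1 pooled region (signal 12.3, rank 8860) in a coding exon, 1488 bp from the 5' end. It was overlapped in replicate 2 alone, at rank 12601. The glypican gene lon-2 (WBGene00003056, chromosome X, 4738964 to 4749083, minus strand) had 7 pooled regions, 6 of them inside the gene. The strongest, 7558 bp from the 5' end in an intron, had a signal of 15.2 and rank 5508, with ranks of 13304 and 4721 in replicates 1 and 2. Other regions inside the gene were the strongest of the window in each replicate, at rank 4088 (signal 11.9) in replicate 1 and rank 2581 (signal 11.2) in replicate 2. With a window of 15.1 kb, lon-2 had the longest window without a thresholded summit among the 10 genes.

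**Figure D2:**
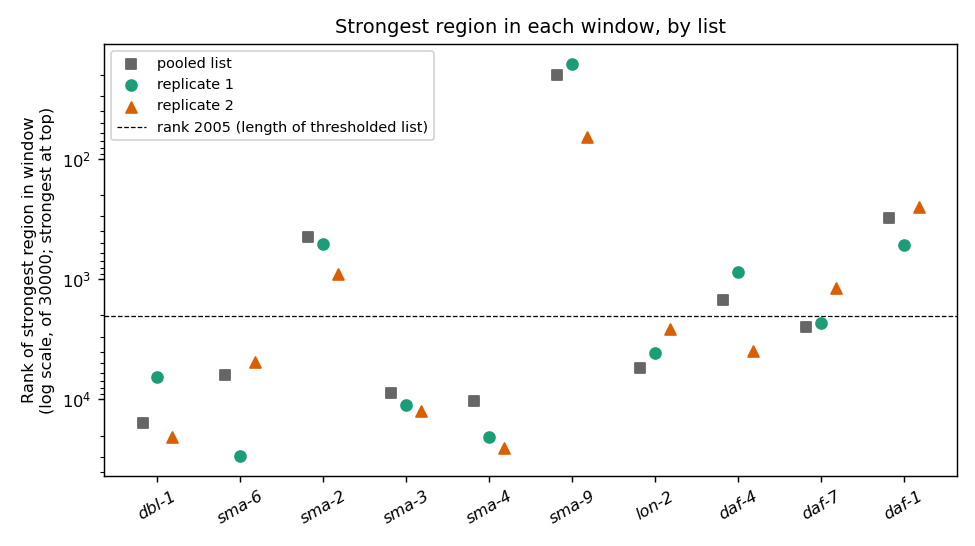
Rank of the strongest region in the window of each gene (log axis, strongest at the top) in the pooled list and in the list of each replicate; the dashed line marks rank 2005, the length of the thresholded list. The strongest region is not the same one in every list for all genes. The points of sma-9, sma-2 and daf-1 lie above the line in all 3 lists, daf-4 falls below it in replicate 2, and daf-7 rises above it in replicate 2 alone.

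The replicates were then set side by side over the 10 genes. Among the 2005 strongest regions of replicate 1, the windows of 4 genes (sma-9, sma-2, daf-4 and daf-1) held a summit, against 12.7% of all protein-coding genes. Among those of replicate 2, 4 genes (sma-9, sma-2, daf-7 and daf-1) held one, against 12.3% of all. The genes shared by the replicates were sma-9, sma-2 and daf-1, while daf-4 rested on replicate 1 and daf-7 on replicate 2. In the full lists all 10 genes had a region in each replicate, and 85.1% of all protein-coding genes had one in the pooled list, so presence there says little about a gene.

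The 10 windows held 37 pooled regions, of which 22 (59.5%) were overlapped by a region in both replicates and 0 in neither. Over all 30000 pooled regions, 36.8% were overlapped in both and 9.79% in neither. Of the 37 summits, 15 lay between protein-coding genes, 11 in introns, 9 in coding exons and 2 in 5' UTRs. The strongest region of a window had a median rank of 4009 in the pooled list over the 10 genes and of 8666 over the 17000 protein-coding genes with any region. The windows here were longer, with a median of 9819 bp against 7027 bp over all genes. The 10 genes were also chosen with peak calls and signal values known, so neither the overlap nor the rank carries a test.

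The body size and dauer branches were compared by their summits per length of window. The 7 body size genes held 3 thresholded summits in 78.3 kb (3.83 per 100 kb), and the 2 dauer genes held 1 in 17.6 kb (5.68 per 100 kb). Without sma-9, which had the most thresholded summits, the other 6 body size genes held 1 in 59.7 kb (1.68 per 100 kb). That value rests on the summit of sma-2 alone, and over all protein-coding windows it was 1.99. Pooled regions numbered 26.8 per 100 kb at the body size genes and 56.8 at the dauer genes, against 29.2 over all. In replicate 1 the values were 34.5 and 39.8 per 100 kb, against 28.99 over all, and in replicate 2 they were 33.2 and 68.2, against 29.6. Of the dauer regions, daf-7 held 6 and daf-1 held 4 in the pooled list, 4 and 3 in replicate 1, and 6 and 6 in replicate 2. Per 100 kb, daf-7 alone had 86.6 pooled regions, 57.7 in replicate 1 and 86.6 in replicate 2. Regions of daf-7 overlap in pairs in the pooled list, inside the gene, and in replicate 2. Its values in these lists, and those of the dauer genes, count overlapping regions separately. The body size values do so too, at sma-9 in both replicates and at lon-2 in replicate 1. For daf-1 alone the values were 37.5 in the pooled list, 28.1 in replicate 1 and 56.3 in replicate 2. It was thus above the body size genes in the pooled list and replicate 2, and below them in replicate 1. With 2 dauer genes and 1 thresholded summit between them, the difference between the branches was not tested.

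The wider pathway was described with a list of 34 genes that includes the 10. A thresholded summit lay in the windows of 9 of the 34, against 12.9% of all protein-coding genes. As above, all 9 were among the 18 genes with a window of at least 10 kb, and none of the 16 genes with shorter windows had one. Of the 8 dauer genes of this list 5 had a summit, with 7.67 per 100 kb. Of its 22 body size genes 3 had one, with 1.53 per 100 kb. The dauer density counts overlapping peaks at daf-14 and at daf-5 separately. Within windows of at least 10 kb, 5 of 5 dauer and 3 of 11 body size genes had a summit. Of all protein-coding genes with such windows 25.0% had one, so the body size count was near the background. The dauer count depends on the limit, which was set after the data were seen. The windows of daf-14 (10.2 kb) and daf-1 (10.7 kb) lay just above it, and those of daf-8 (8.08 kb) and daf-9 (8.90 kb) below. The list was chosen with results known, and the difference between its branches was not tested.

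The list was also read by role. None of the 5 ligand genes (dbl-1, daf-7, unc-129, tig-2 and tig-3) and none of the 10 genes for extracellular and membrane modulators, lon-2 and sma-10 among them, had a thresholded summit. The windows of the modulators came to 127 kb with 40 pooled regions, or 31.5 per 100 kb, against 29.2 over all protein-coding windows. The SMAD genes had summits at 3 of 6 and the cofactor genes at 2 of 3. Of all protein-coding genes 12.9% had a summit, with 25.0% for windows of at least 10 kb and 10.6% for shorter ones. The median window was 7.57 kb for the ligand genes, 12.7 kb for the modulators, 9.60 kb for the SMAD genes and 18.7 kb for the cofactor genes. In groups of 5 and 10 genes, counts of 0 carry little weight beside these shares, and no difference between roles was tested.

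The dauer cofactor daf-5, a relative of the Sno and Ski proteins that works with DAF-3, had 4 thresholded summits, all in its introns. Their signals were 93.4, 60.7, 49.3 and 39.5, at ranks 56, 357, 666 and 1128. Windows with at least 4 belonged to 40 protein-coding genes (0.200%), and the window of daf-5 was 24.1 kb long. Those with signals of 49.3 and 39.5 lay next to each other and were overlapped by the same region in replicate 1 (rank 432) and in replicate 2 (rank 171), so they are not independent.

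The SMAD gene daf-14 had 2 adjacent summits in an intron, with signals of 78.6 and 58.1 (ranks 136 and 413), both overlapped by the region of rank 330 in replicate 1 and of rank 27 in replicate 2. The intronic summits lay 1182 and 983 bp upstream of the shorter of its transcripts, an arrangement like that of the intronic peak of sma-9. The SMAD gene daf-3, which opposes the other dauer SMADs, had a summit 2269 bp upstream (signal 65.4, rank 282), with ranks of 217 and 712 in replicates 1 and 2. This summit lay nearer to wdr-54, at 1159 bp.

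The kinase gene kin-29, which acts on body size, had a summit 195 bp upstream (signal 48.4, rank 703), with ranks of 1226 and 306. The nuclear receptor gene daf-12, which acts after the dauer pathway, had 1 in an intron, 1778 bp from its 5' end (signal 41.0, rank 1046). There the replicates differed as at daf-4, with ranks of 288 in replicate 1 and 13880 in replicate 2. The windows of daf-8, another dauer SMAD, and of daf-9, an enzyme gene upstream of daf-12, held no thresholded summit.

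**Figure D3:**
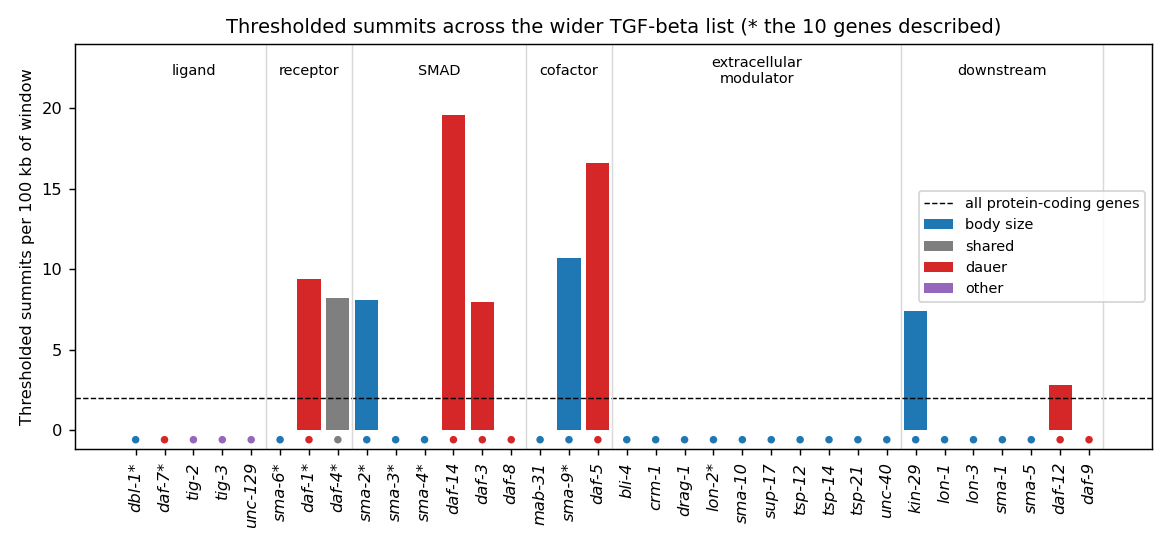
Thresholded summits per 100 kb of window for the 34 genes of the wider list, grouped by role; bars start at 0, colours of bars and dots give the branch, asterisks mark the 10 genes described and the dashed line is the value over all protein-coding windows, 1.99. Bars stand at 9 genes, the highest at daf-14 and daf-5, where overlapping peaks were counted separately. Over all protein-coding genes 12.9% had a thresholded summit.

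The sequences at the 5 thresholded summits were read for forkhead and SMAD motifs. The forkhead core was searched as GTAAACA, the form GTAAATA, the form ATAAACA and the form ATAAATA on both strands within 50 bp of the summit. It was present at 1 of the 5, against 111 of the 2005 thresholded summits (5.54%). That match was the ATAAACA at daf-1, from 41 to 35 bp before the summit (chrIV:132166-132172), within the sequence printed above. In windows of the same width 500 bp to each side it was present at 2 of 10 beside these 5 summits and at 10.5% of all such windows. The side windows had a median of 33.7% G and C, against 43.6% at all thresholded summits, and the searched forms are rich in A and T. The share of the core that goes with base content was not tested. The SMAD palindrome GTCTAGAC was at none of the 5 and at 5 of the 2005 (0.249%). Its shorter core GTCT, which the palindrome contains, was at the daf-1 and the upstream sma-9 summit, against 54.7% of all thresholded summits.

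The base make-up of the summit sequences was described next. The longest run of purines or of pyrimidines had 24 bases at daf-4, 17 in the intron of sma-9, 14 at daf-1, 12 upstream of sma-9 and 8 at sma-2. Over all thresholded summits the median was 10 bases (quartiles 8 and 14), and in windows 500 bp to each side it was 8 (quartiles 7 and 10). The run at daf-4 was longer than those at 96.1% of thresholded summits. At sma-2 the window was poorest in G and C (28.7%) and its run was shorter than the median. Content of G and C was 46.5% at daf-4, 43.6% upstream of sma-9, 42.6% at daf-1 and 33.7% in the intron of sma-9, against a median of 43.6% over all thresholded summits. The daf-7 region below the threshold had 41.6% G and C, a longest run of 7 bases and no forkhead core or GTCT.

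**Figure D4:**
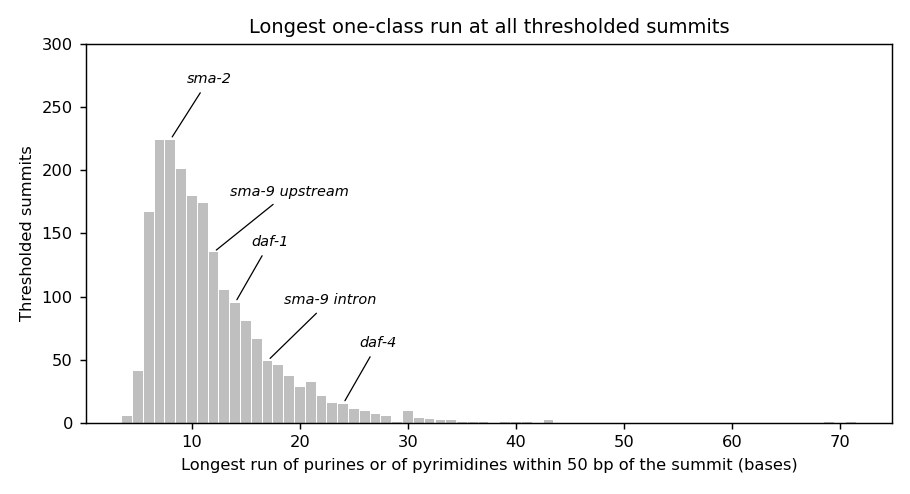
Number of thresholded summits by the length in bases of the longest run of only purines or only pyrimidines within 50 bp of the summit; labels mark the 5 summits at the genes described. The summits of daf-4, the sma-9 intron and daf-1 lie to the right of the median of 10 bases, as does the upstream summit of sma-9, and sma-2 lies to the left.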

How the data were processed

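ChIP-seq peak lists of 2 biological replicates in 1 group were used. Per the deposited file descriptions, the authors called candidate regions on each replicate and on both pooled against a control alignment, and derived the thresholded list by IDR. The signal value of each region is as the authors deposited it, with a scaling not stated. The aligner, the caller and the cut-off of the IDR step: not given in the sources used here. Depth and the control were not analysed here. Lists on ce10 were not used, for want of an annotation of that build.

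Genes came from Ensembl release 115 (WBcel235). Sequence came from RefSeq, whose chromosomes contain all listed coordinates. Positions count from 1. Summits were assigned by window, so 1 summit can belong to several genes. The window counts were tested on simulated summits placed in the windows of 200 of 19973 genes, all 200 of which were recovered. Python 3.11, pandas 2.3.3, NumPy 2.4.6, Biopython 1.88 and matplotlib 3.10.9 were used.

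The members, the wider list and the motifs were chosen with earlier results of these data known. No test was made, since there was no contrast and genes are not replicates. Named were the 10 genes, genes of the wider list with a thresholded summit, the 3 genes most like sma-9 and genes nearer to a named summit. Other genes of the wider list are named by role. Alternatives were upstream limits of 1 and 2 kb, assignment to the gene holding the summit or with the nearest start, the strongest 50% of thresholded peaks, the strongest pooled regions, overlap by 1 bp, each replicate alone, and motif windows of 100 bp to each side. Several parts were added after the data were seen. They were the splits by window length and of the wider list by branch, the side windows and the base runs. The densities without sma-9 and of daf-7 and daf-1 alone were also added then.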

Additional observations from a re-analysis of the deposited data

How the results depend on the processing

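The number of the 10 genes with a thresholded summit was 4, against 12.9% of all protein-coding genes, and 2 with 1 kb upstream, against 6.99%. It was 3 with 2 kb upstream (8.71% of all genes), by nearest start (7.84%) and with the strongest 50% of peaks (6.73%). It was 4 with overlap by 1 bp (13.4%), without replicate 1 (12.3%) and without replicate 2 (12.7%). Without a replicate, the 2005 strongest regions of the other one were counted and IDR was not run again. The share of all genes thus fell in the same settings as the count here. Body size genes held 3 summits, but 1 with 1 kb or 2 kb upstream, and 3 without either replicate. Dauer genes held 1, and 2 without replicate 1, 1 without replicate 2. The strongest pooled regions, as many as the thresholded list holds, were the thresholded peaks themselves, so that alternative changed nothing. Genes with a summit over the genome numbered 2580, and 1397 with 1 kb upstream, 1565 by nearest start, 1345 with the strongest 50% of peaks and 809 counted in windows of at least 10 kb alone. The wider list held 9, of which 5 were dauer and 3 body size genes. For the 4 genes with a summit, 8 of 28 counts moved by over 1.5 times under the 7 alternatives other than the strongest pooled regions, and of the 6 genes without one, 1 gained a summit. The changes were at daf-4 (none with 1 kb upstream, in the strongest 50% or without replicate 1), sma-2 (none with 1 or 2 kb upstream or by nearest start), sma-9 (1 with 1 or 2 kb upstream) and daf-7 (1 without replicate 1). The cause was not tested beyond the narrower windows and shorter lists themselves. The share of summits with a forkhead core was 20% with the wider window too, while over all thresholded summits it rose from 5.54% to 12.2%. No paired analysis was possible because there was only 1 group. Depth is unknown and limits what a missing peak means.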
